A study of Mus musculus with 19 samples.

Results

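The genes described here encode the proteins of the cytosolic ribosome, the particle on which every cell makes protein. Their rows were those whose symbol is Rpl or Rps with a number (with or without a final a, l, x or l1), or Rplp0, Rplp1, Rplp2 or Rpsa, and whose mean in the heart dissection was at least 1 CPM (counts scaled to library size). Of 83 matching symbols, 79 met that level, among 24421 gene rows in all. They comprised 47 genes of the large subunit and 32 of the small subunit, and all 79 were among the 12694 genes tested. The 4 symbols left out were Rpl10l, which had no counts, Rpl39l (0.0407 CPM), Rpl26 (0.0756 CPM) and Rpl3l (0.587 CPM). Rpl10l, Rpl39l and Rpl3l are paralogues with restricted expression, whereas Rpl26 encodes a core protein of the large subunit.

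RNA came from single mouse embryos at E9.5 that carried Mesp1-Cre and floxed Chd7 alleles (Mesp1-Cre; Chd7 fl/fl, the cKO) or Mesp1-Cre with no floxed allele named (the control). Mesp1-Cre is active in early mesoderm, including cardiopharyngeal mesoderm, so that cells of other lineages in a dissection keep Chd7. The outflow tract with the heart tube (‘HEART’) was taken from 4 control and 4 cKO embryos, and the distal pharyngeal apparatus (‘SHF’, in which second heart field progenitors lie among neighbouring tissue) from 5 control and 6 cKO embryos. Of 11 embryos, 8 gave both dissections. ‘HEART’ data were read counts for each embryo, and ‘SHF’ data were a single value for each genotype in FPKM (fragments scaled to transcript length and library size), with no spread between embryos.

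A ribosome joins a large and a small subunit, each built in the nucleolus on ribosomal RNA from proteins that are needed in near equal numbers. The mRNAs of these proteins share a run of pyrimidines at their very start, the 5′ terminal oligopyrimidine or TOP motif, through which mTORC1 and the RNA-binding protein LARP1 control their translation and stability together. CHD7 is a chromatin remodeller that has also been described in the nucleolus, at the ribosomal DNA. The ribosomal RNA itself was not analysed here, because ‘HEART’ libraries were selected for poly(A) RNA and ‘SHF’ libraries were depleted of ribosomal RNA.

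The start of the mRNA is shown for 7 genes, picked because they carry a pyrimidine run at their annotated start. Most genes with an entry had no such run at that base, as counted below. Each line holds 20 bases before and 20 bases from the annotated start (GRCm38.p6, RefSeq), with the unbroken run of pyrimidines from the start base in capitals.
Rpl15: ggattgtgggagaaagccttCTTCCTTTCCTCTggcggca
Rpl35: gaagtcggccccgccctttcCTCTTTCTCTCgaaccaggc
Rpl28: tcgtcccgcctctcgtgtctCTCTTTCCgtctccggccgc
Rps10: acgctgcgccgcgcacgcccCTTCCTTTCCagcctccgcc
Rps6: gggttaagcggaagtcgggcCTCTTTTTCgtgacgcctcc
Rps18: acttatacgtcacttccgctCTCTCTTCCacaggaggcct
Rps15a: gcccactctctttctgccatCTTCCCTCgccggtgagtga
Their windows were Rpl15 chr14:18270967-18271006, minus strand, Rpl35 chr2:39005112-39005151, minus strand, Rpl28 chr7:4792945-4792984, plus strand, Rps10 chr17:27635225-27635264, minus strand, Rps6 chr4:86857348-86857387, minus strand, Rps18 chr17:33955646-33955685, minus strand, Rps15a chr7:118116128-118116167, minus strand. Of the 79 genes, 58 matched a RefSeq entry by symbol, and in 13 of these the annotated first base was a C followed by at least 4 further C or T. The same was found in 3.01% of all 27025 genes with an entry. The letters CTTTCC, which can lie inside such a run, stood within 50 bases of the start on the sense strand in 17 of the 58 (29.3%, against 5.43% of all genes). CCGGAAGT, the letters that ETS-family factors such as GABPA bind, were found on either strand in 11 of the 58 windows of 300 bases (4.31% of all genes). The first of these counts depends on the exact base annotated as the start.

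Depth in ‘HEART’ ranged from 8640839 counts (cKO 3) to 15030099 counts (control 1). Chd7 ranged from 224 to 242 CPM across control hearts and did not exceed 43.5 CPM in any cKO heart, with every sample on the side of its label (log2 fold change -2.71 ± 0.18, SE, adjusted p = 8.96e-06 by edgeR). All 10 cardiomyocyte markers, among them Myh6, Tnnt2 and Nkx2-5, were detected, at a summed 40077 to 46324 CPM per library. The X inactivation transcript Xist ranged from 34.6 to 86.3 CPM across cKO samples, was 61.4 CPM in control 1, and did not exceed 1.28 CPM in the remaining controls.

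In the heart, no ribosomal protein gene passed the test between genotypes. By edgeR's quasi-likelihood test with a Benjamini-Hochberg adjusted p of 0.1, 0 of 79 were called. Of all genes tested 6.44% were, 3.51% as higher and 2.92% as lower in cKO. DESeq2 and limma-voom also called 0 of 79, against 994 and 823 of all 12694 genes tested. At an unadjusted p under 0.05 by edgeR there were also 0 (16.6% of all genes). For 0 of 79 did the 4 control and 4 cKO samples fail to overlap (10.2% of all genes). The fitted log2 fold changes ran from -0.23 to 0.53, with a median of -0.04 for large subunit genes, -0.03 for small subunit genes and -0.01 for all genes tested. The top value was that of Rps27 (0.53 ± 0.40, SE), which had only 4 to 31 reads per library, and the next was 0.11 (Rpl22l1). Values below 0 were found for 64 genes, a share that was 51.5% over all genes and 41.0% over the 2249 genes of at least 100 CPM. That count depended on which cKO hearts were kept. Without cKO 3, 59 of the 79 values were above 0 (48.6% of all genes tested in that fit). Without cKO 4, 3 were (49.6% of all genes), and without both, 5 were (6397 of all 13023 genes). For 69 of 79 genes the 95% interval of the difference lay within 0.32 of 0 on the log2 scale, and for 78 it lay within 1.5-fold. On simulated counts of 12586 genes the same fit called 16.3% of genes changed 1.2-fold and 68% of those changed 1.5-fold. Genes that had not been changed made up 13.7% of its calls. In bulk tissue, fewer cells of a type and less RNA per cell cannot be told apart.

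**Figure D1:**
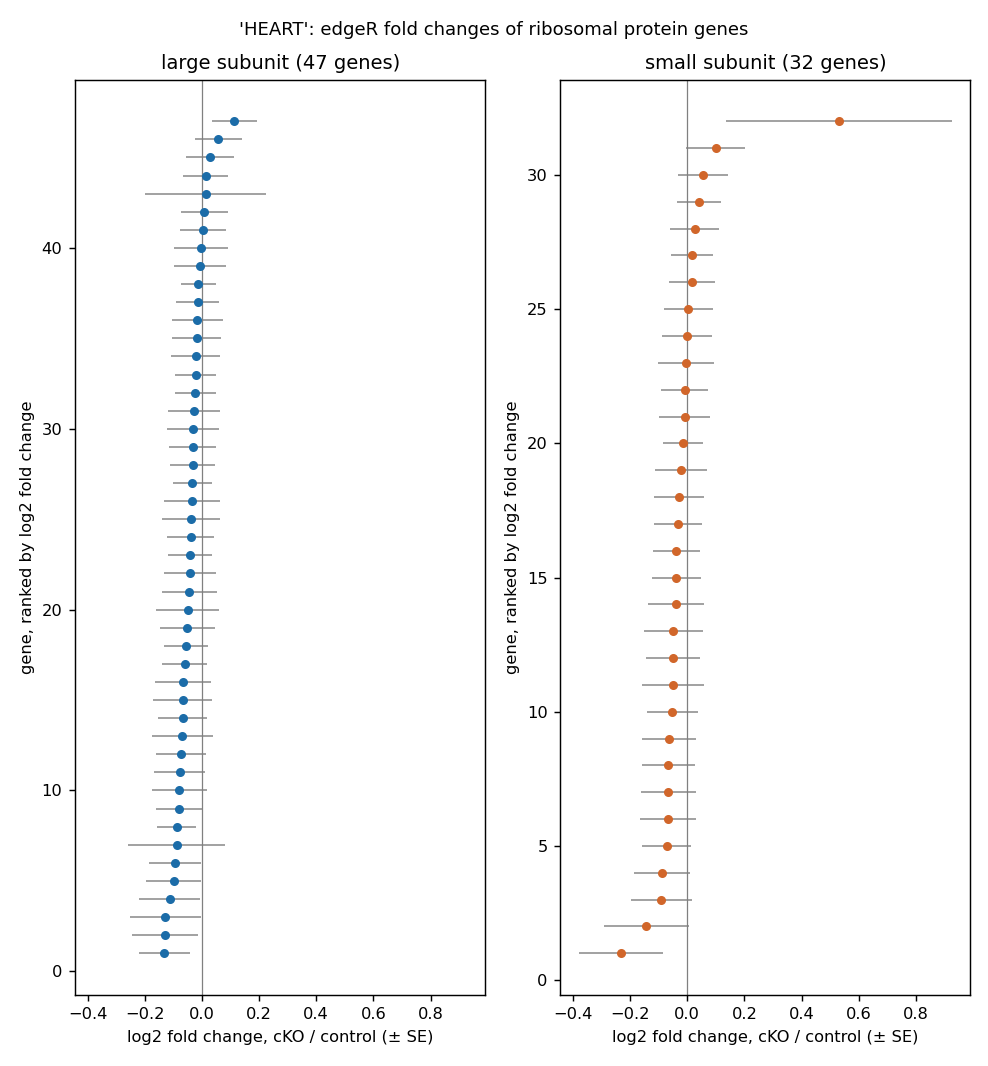
Log2 fold change of cKO over control ‘HEART’ (x axis, edgeR) for each of 47 large subunit genes (left) and 32 small subunit genes (right). Genes are ordered by their value (y axis, rank); points are fitted values, bars are SE and the line marks no difference; all values but that of Rps27 (0.53) lie between -0.23 and 0.11.

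Of the large subunit, Rpl11 had the smallest p. Its protein, together with RPL5 and 5S ribosomal RNA, binds MDM2 and so links ribosome assembly to p53. Rpl11 (chromosome 4, 136028265 to 136053428 in mm10) was at 191, 185, 179 and 195 CPM in controls 1 to 4 and at 173, 174, 141 and 196 CPM in cKO 1 to 4. The highest and the lowest of the 8 samples were both cKO samples. Its log2 fold change was -0.13 ± 0.09 (SE, adjusted p = 0.505).

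Rpl27 and Rplp1 showed the same order of samples at the extremes. Rplp1, a protein of the stalk that recruits translation factors, was at 467 to 544 CPM in control and at 479, 436, 380 and 579 CPM in cKO 1 to 4. Rpl27 was at 125 to 133 CPM in control and at 125, 110, 91.6 and 147 CPM in cKO 1 to 4. In both genes cKO 3 was the lowest and cKO 4 the highest of 8 samples, and the controls lay between them. Rpl27 had a log2 fold change of -0.13 ± 0.11 and Rplp1 one of -0.11 ± 0.11 (SE).

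Of the small subunit, Rps29 had the lowest fold change and the smallest p. It encodes a small zinc-binding protein of the subunit's head, mutated in some human families with Diamond-Blackfan anaemia. Rps29 (chromosome 12, 69157722 to 69159186) was at 49.2, 44.4, 40.8 and 50.3 CPM in controls 1 to 4 and at 43.4, 41.9, 25.4 and 45.8 CPM in cKO 1 to 4. Of the cKO samples, cKO 3 was far below the others, which lay within the control range. The log2 fold change was -0.23 ± 0.15 (SE, adjusted p = 0.480).

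Rps28 and Rps12 also had values below 0. Rps28, near the exit of the mRNA channel, was at 21.1, 26.7, 21.7 and 21.8 CPM in controls 1 to 4 and at 20.8, 17.9, 16.03 and 27.3 CPM in cKO 1 to 4, a log2 fold change of -0.14 ± 0.15 (SE). Rps12 was at 248 to 287 CPM in control and at 259, 226, 223 and 308 CPM in cKO 1 to 4, with a log2 fold change of -0.09 ± 0.10 (SE). In each gene cKO 4 was above every control.

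Levels between genes are compared per kilobase of coding sequence. Reads were counted for the whole gene, so that a gene with a short coding part ranks higher on this measure. The median of the ribosomal protein genes in ‘HEART’ was 656 CPM per kb. The highest of the large subunit were Rpl41 (3640 CPM per kb), Rpl8 (1569) and Rplp1 (1426). The coding sequence of Rpl41 is only 75 bases of an mRNA of 437 bases, and its rank rests on this choice of length. Those of the small subunit included Rps2 (1477 CPM per kb) and Rps26 (1439). Rpl8, which lies at the peptidyl transferase centre, was at 1144 to 1260 CPM in control and at 1159, 1114, 1094 and 1443 CPM in cKO 1 to 4. Rps2, at the entry of the mRNA channel, was at 1212 to 1396 CPM in control and at 1263, 1171, 1173 and 1534 CPM in cKO 1 to 4. Both had cKO 4 on top and both had a log2 fold change within 0.03 of 0. Rpl41 (log2 fold change -0.13 ± 0.12, SE) was at 263 to 308 CPM in control and at 263, 246, 199 and 335 CPM in cKO 1 to 4. Rps26 averaged 497 ± 27.3 CPM in control hearts against 496 ± 66.1 CPM in cKO hearts (SD, n = 4 each). The lowest was Rps27 (4.83 CPM per kb).

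What these genes did show was a shared movement from one cKO heart to another. Summed over the 79 genes, controls 1 to 4 had 30853, 30451, 28581 and 30876 CPM, and cKO 1 to 4 had 28927, 27973, 26445 and 35224 CPM. The extremes were cKO 3 and cKO 4, and the controls stood inside that range. The sums averaged 30190 ± 1090 CPM over control hearts against 29642 ± 3859 CPM over cKO hearts (SD, n = 4 each). As a percentage of all counts they were 2.87 to 3.18% in control and 2.86, 2.73, 2.62 and 3.50% in cKO 1 to 4.

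Gene by gene, cKO 4 was the highest of the 8 samples for 74 of 79 genes, a place it held for 18.9% of all genes tested and 26.4% of genes of at least 100 CPM. The lowest was cKO 3 for 66 of 79 genes (17.5% of all genes and 17.3% of those of at least 100 CPM). All 79 genes lay above their own mean over the 8 samples in cKO 4, and 78 lay below it in cKO 3. The median log2 deviation from that mean was 0.25 in cKO 4 and -0.19 in cKO 3, a 1.36-fold distance, against 0.06, 0.04, -0.06 and 0.05 in controls 1 to 4. For all genes tested the median deviation was 0.02 in cKO 4 and under 0.01 in size in cKO 3. The direction was shared by some related sets and not by all. Of 77 mitochondrial ribosomal protein genes, 94.8% lay above their own mean in cKO 4 and 7.8% in cKO 3. For 19 RNA polymerase I genes these shares were 84.2% and 15.8%. For 54 cytosolic translation factor genes they were 75.9% and 35.2%, and for 91 genes of nucleolar ribosome assembly 56.0% and 34.1%. The 26 regulators of ribosome production by mTORC1 and MYC went the other way, at 42.3% and 65.4%. The cytosolic ribosomal protein genes not led by cKO 4 were Rps29, Rpl22l1, Rps27, Rpl7l1 and Rpl30, named here after their values were seen.

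Medians of genes with and without the pyrimidine run at their annotated start stood close together in these libraries, with no test of the difference. The split follows the exact base annotated as the start, so a gene whose run begins a few bases away counts as without one. It therefore cannot separate TOP mRNAs from other mRNAs. The median deviation of the 13 genes with a run was -0.23 in cKO 3 and 0.27 in cKO 4, and that of the 45 genes without one was -0.18 and 0.24. Rps6, whose protein is the phosphorylation target of S6 kinase downstream of mTORC1 and which is named here for its start, was at 258, 253, 231 and 252 CPM in controls 1 to 4 and at 229, 234, 206 and 276 CPM in cKO 1 to 4. It had a log2 fold change of -0.07 ± 0.08 (SE), and cKO 3 and cKO 4 were again the lowest and the highest.

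**Figure D2:**
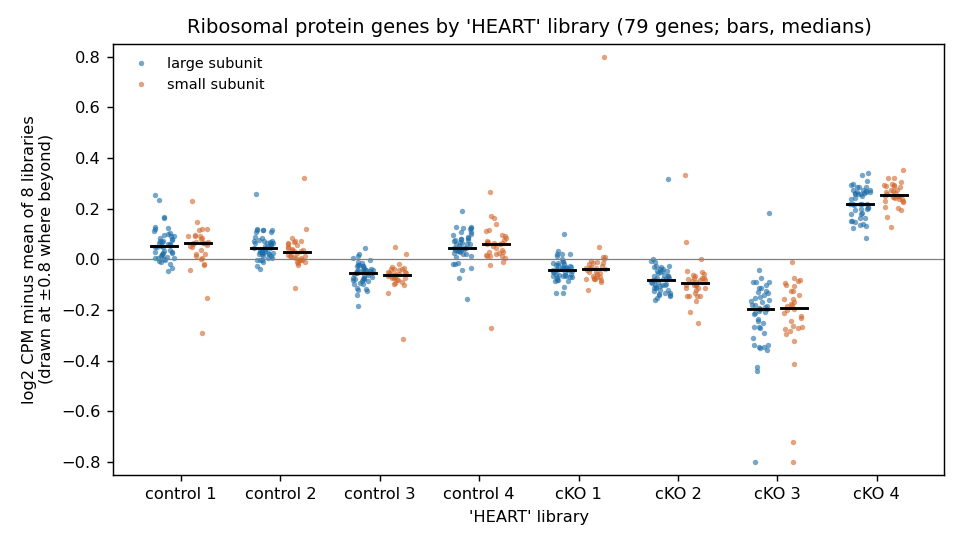
Log2 CPM of each gene minus its mean over the 8 ‘HEART’ samples (y axis) in each sample (x axis), for large subunit (blue) and small subunit (orange) genes. Black bars are medians, at -0.19 in cKO 3 and 0.22 (large) and 0.26 (small) in cKO 4; the control medians lie between -0.06 and 0.06.

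The subunits moved in the same direction in both libraries. The medians in cKO 3 were -0.19 for each subunit, and in cKO 4 they were 0.22 for large and 0.26 for small subunit genes, with no test of the difference. The ratio of summed large to summed small subunit CPM was 1.31 to 1.35 in all 8 libraries, and cKO 4 had the lowest. The median SD of a gene within a genotype was 0.144 on the log2 scale, and 0.050 once the median deviation of the set in each library was subtracted. That median was taken from these same genes, so a fall was in part built in and cannot show how closely they moved together. Over all genes of at least 100 CPM the median SD was 0.102. Nothing was subtracted there, so that value cannot be compared with 0.050. In controls the median SD of ribosomal protein genes was 0.066 and in cKO it was 0.193. Samples with the embryo code prefix E8 were control 3 and cKO 3, both the lowest of their genotype, and those with E19 were control 4 and cKO 4, both the highest in summed CPM, with control 1 close to control 4. The meaning of the prefix is not stated in the sources used here. Within E8 the cKO sum was below the control sum, and within E19 it was above.

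The 3 genes farthest below the set in cKO 3 were Rps27, Rpl34 and Rps29, picked after their values were seen. Rps27 was at 0.905, 1.02, 0.889 and 1.24 CPM in controls 1 to 4 and at 2.43, 1.39, 0.468 and 1.38 CPM in cKO 1 to 4. Rpl34 was at 12.2, 11.2, 9.46 and 9.82 CPM in controls 1 to 4 and at 11.1, 12.9, 5.50 and 13.1 CPM in cKO 1 to 4. Neither gene separated the genotypes, and both stood far below the typical member in level. Reads per library were 4 to 31 for Rps27 and 47 to 188 for Rpl34.

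Depth and transcript length are given beside this pattern. cKO 3 was the shallowest library, while cKO 4 (13118792 counts) was the second deepest. Ribosomal protein genes are short, and over other genes of at least 100 CPM the median deviation of log2(CPM + 0.5) also went with coding length. For 104 other genes of under 450 coding bases it was -0.09 in cKO 3 and 0.15 in cKO 4. For 1577 other genes of 1000 bases or more it was 0.04 and -0.02. Among ribosomal protein genes it was -0.22 and 0.26 for the 37 under 450 bases and -0.16 and 0.24 for the 41 of 450 bases or more. Across 78 ribosomal protein genes Spearman's rho of coding length with the deviation was 0.487 in cKO 3 and -0.261 in cKO 4, a description of single libraries. Across the 2120 other genes rho was 0.327 and -0.305. The part of length in the result was not tested.

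**Figure D3:**
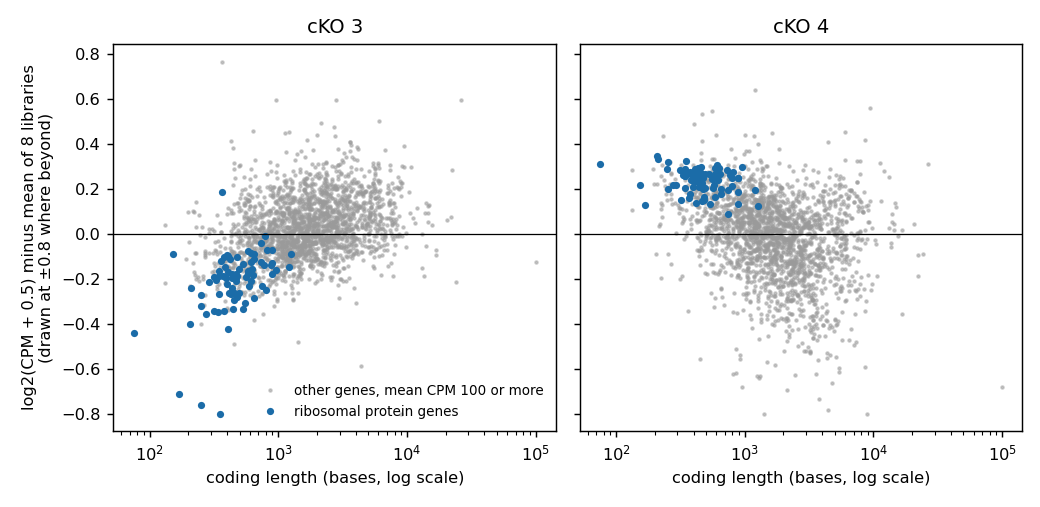
Deviation of log2(CPM + 0.5) from the mean of the 8 ‘HEART’ samples (y axis) against coding length in bases (x axis, log scale) in cKO 3 (left) and cKO 4 (right). Blue points are 78 ribosomal protein genes and grey points 2120 other genes of at least 100 CPM; short grey genes lie on the side of the blue ones, with medians of -0.09 and 0.15 under 450 bases.

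Calls with and without these libraries were as follows. Without cKO 4, 0 of 79 genes were called (11.1% of all genes tested in that fit were), 26 had an unadjusted p under 0.05 (2873 of all 12813 genes), the genotypes did not overlap for 17 (20.7% of all genes), 3 values were above 0 (49.6% of all genes), and the median log2 fold change was -0.12. Without cKO 3, 0 were called (5.69% of all genes tested in that fit were), 1 had an unadjusted p under 0.05 (1989 of all 12846 genes), the genotypes did not overlap for 1 (14.6% of all genes), and the median was 0.02. Without both, 0 were called (1016 of all 13023 genes tested in that fit were), 5 values were above 0 (6397 of all genes) and the median was -0.08 (all genes -0.004).

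Other genes of ribosome production had median deviations of smaller size in cKO 3 and cKO 4, with no test of the difference. Of 77 mitochondrial ribosomal protein genes, which build the separate ribosome of mitochondria, 0 rose and 1 fell, Mrpl37 (log2 fold change -0.28 ± 0.08, SE, adjusted p = 0.091), a call lost in 11 of 20 alternatives (adjusted p just above 0.1 to 0.259), among them without control 1, 2 or 3 and without cKO 1, 2 or 3. Their median log2 fold change was -0.08, and their median deviation was -0.15 in cKO 3 and 0.13 in cKO 4. That of 19 RNA polymerase I genes was -0.11 and 0.11, with 0 called. Of 54 cytosolic translation factor genes 1 rose and 0 fell, with median deviations of -0.04 and 0.09. Of 91 genes of nucleolar ribosome assembly 0 were called, with deviations of -0.05 and 0.03. The 10 endothelial and endocardial markers had median deviations of 0.01, 0.25, -0.13 and 0.27 in cKO 1 to 4. Erythroid markers (8 measured, 0 called) were at a summed 4338 to 12638 CPM in control and 1209 to 5646 CPM in cKO, and at 5646 and 4184 CPM in cKO 3 and cKO 4. The part of these cells in the result was not tested.

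The translation factor gene that rose was Eif2s3x, the X-linked gene of the gamma subunit of eIF2, which carries initiator tRNA. It was at 74.5, 62.5, 57.8 and 58.4 CPM in controls 1 to 4 and at 82.4, 77.2, 78.4 and 82.3 CPM in cKO 1 to 4, with no overlap and control 1 nearest to the cKO samples. Its log2 fold change was 0.34 ± 0.09 (SE, adjusted p = 0.044), and 0.12 with an adjusted p of 0.727 once log2 Xist was a covariate. Eif2s3x is known to escape X inactivation in mouse, and its call was also lost without control 2, 3 or 4 or cKO 1 (adjusted p = 0.104 to 0.132).

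Among 26 regulators of ribosome production by mTORC1 and MYC, 2 rose and 0 fell. Their median deviation was 0.05 in cKO 3 and -0.03 in cKO 4, opposite in sign to that of the ribosomal protein genes. Mycl, a MYC family gene, was at 5.30, 4.95, 5.82 and 6.60 CPM in controls 1 to 4 and at 9.49, 8.44, 8.31 and 9.60 CPM in cKO 1 to 4. The genotypes did not overlap, and the log2 fold change was 0.66 ± 0.14 (SE, adjusted p = 0.019). With the Xist covariate the fold change was 0.78 and the adjusted p 0.163, so that the call was lost while the value was no smaller. Mga, which encodes a MAX partner, was at 101 to 131 CPM in control and 136 to 153 CPM in cKO (0.27 ± 0.08, SE, adjusted p = 0.098). This call was lost in 10 of 20 alternatives (adjusted p = 0.101 to 0.233), among them without control 1, 2 or 3 and without cKO 1, 2 or 3. Of 19 genes of the p53 response, 0 rose and 1 fell, the desmosomal gene Perp, with a log2 fold change of -1.42 ± 0.12 (SE).

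Of the 4 genes with an l or l1 suffix, none passed. Rpl22l1 is the paralogue of Rpl22, whose protein in mouse binds the Rpl22l1 transcript and lowers its level. Rpl22l1 was at 67.2, 67.0, 62.4 and 68.0 CPM in controls 1 to 4 and at 66.7, 65.0, 78.1 and 76.8 CPM in cKO 1 to 4. It was the 1 gene of the set that stood above its mean in cKO 3. Rpl22 was lowest in that library (338 CPM, against 365 to 381 CPM in control), as 1 of 66 genes of the set that were. In cKO 4, where Rpl22 was highest (443 CPM), Rpl22l1 was also above every control, so that the levels of the pair did not move in opposite directions throughout. Rpl22l1 had a log2 fold change of 0.11 ± 0.08 and Rpl22 one of 0.01 ± 0.08 (SE).

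Rps27l, a p53 target, had a log2 fold change of -0.05 ± 0.11 (SE) and was at 92.9 to 103 CPM in control and 79.9 to 121 CPM in cKO. Rpl7l1, which acts in assembly of the large subunit, had one of -0.09 ± 0.07 (SE), and its parent Rpl7 one of 0.06 ± 0.08 (SE). Rps4l had one of 0.10 ± 0.10 (SE), and its X-linked parent Rps4x one of 0.04 ± 0.08 (SE).

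The other X-linked members were Rpl10 (log2 fold change 0.03 ± 0.08, SE), Rpl36a (-0.07 ± 0.09) and Rpl39 (0.00 ± 0.08). None separated the genotypes, while Xist was high in 4 of 4 cKO samples and 1 of 4 controls. The 78 members placed by the annotation lay on 19 chromosomes, and 29 of them held 56 small nucleolar RNA genes within their bounds.

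The level of a ribosomal protein gene in these tables can depend on how reads with more than 1 match were treated. Many processed pseudogenes copy these mRNAs, so the coding sequence was cut into windows of 43 bases, the length of the reads, and each window was searched for in the transcripts of all other genes (GENCODE M21, mm10). The median member had 5.9% of its windows in no other gene, and 30 of 78 had no such window. The median was 100% for 77 mitochondrial ribosomal protein genes and 94.6% for 55 translation factor genes. Reads were taken in pairs, so that single windows understate what an aligner can place. Over 78 members Spearman's rho of the unique share with ‘HEART’ CPM per kb was 0.485, a description across genes. A window that also stands in other genes is shown, on the coding strand, for 3 genes that were low in ‘HEART’ and for Rpl4, which was high (1599 CPM), all chosen after their values were seen: Rps27 (chromosome 3, 90212522 to 90213651, minus strand), Rpl30 (chromosome 15, 34440505 to 34443640, minus strand), Rpl26 (chromosome 11, 68901583 to 68906989, plus strand) and Rpl4 (chromosome 9, 64173375 to 64178666, plus strand).
Rps27: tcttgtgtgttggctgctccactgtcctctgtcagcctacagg
Rpl30: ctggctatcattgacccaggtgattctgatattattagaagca
Rpl26: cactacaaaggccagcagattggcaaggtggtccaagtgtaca
Rpl4: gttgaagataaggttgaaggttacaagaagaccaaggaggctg
Each is the window of its gene found in the most other genes, after windows matching any gene of a certain chromosome were set aside. The window of Rps27 (coding bases 161 to 203) was also found in 6 other genes, that of Rpl30 (coding bases 280 to 322) in 14, that of Rpl26 (coding bases 181 to 223) in 7 and that of Rpl4 (coding bases 460 to 502) in 2. Over all windows, other genes that shared any were 12 for Rps27, 16 for Rpl30, 12 for Rpl26 and 2 for Rpl4. Rpl30, although low, had 14.2% of its windows in no other gene, above the median of the set, and Rpl4 had 75.3%.

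**Figure D4:**
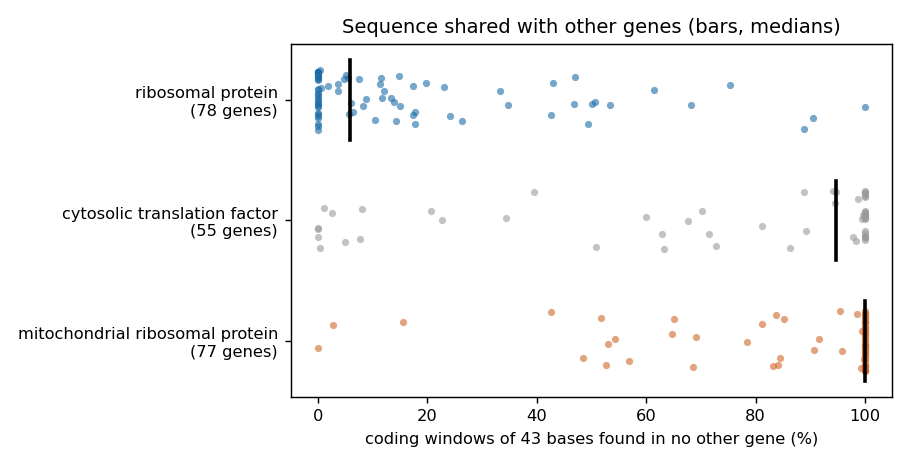
Percentage of 43-base coding windows found in no other gene (x axis) for 78 ribosomal protein genes, 55 cytosolic translation factor genes and 77 mitochondrial ribosomal protein genes. Points are genes and black bars medians, at 5.9, 94.6 and 100%.

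The dissections, which were aligned by different versions of STAR and counted differently, ranked these genes in part alike. Over 68 members Spearman's rho of ‘HEART’ CPM per kb with ‘SHF’ FPKM was 0.684, a description across genes of pooled values. The former is scaled to coding length and the latter to transcript length. Rps27, a zinc-binding protein of the small subunit, was among the exceptions, with 4.83 CPM per kb in ‘HEART’ and 1516 FPKM in control ‘SHF’. Rpl34 had 30.3 CPM per kb in ‘HEART’ and 568 FPKM in control ‘SHF’. Rpl26, which missed the level of 1 CPM in ‘HEART’, had 942 FPKM in control and 983 FPKM in cKO ‘SHF’. In the other direction Rps15a had 658 CPM per kb in ‘HEART’ and 52.7 FPKM in control ‘SHF’. The log2 ratio of the dissections went with the unique share at rho 0.138. The part of shared sequence in these levels was not tested.

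In the pharyngeal dissection the ribosomal protein genes were slightly higher in cKO. Of 79 genes, 69 had a locus with a single symbol, and 66 of these had the higher FPKM in cKO. Over all 16601 such loci with a value in both genotypes that share was 46.1%, and it was 45.3% of those of at least 5 FPKM and 53.9% of the 608 of at least 100 FPKM. The median log2 ratio of cKO over control was 0.05 for the 69 genes, with an SD over genes of 0.028 and a range of -0.03 to 0.13, against -0.01 over all loci. Their FPKM summed to 47242 in control and 49081 in cKO, which was 11.2% and 11.7% of the FPKM of all these loci. No gene was past 1.5-fold (0 of 69, against 13.5% of all loci, 0.676% of those of at least 5 FPKM and 0.987% of those of at least 100 FPKM).

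Large subunit genes had a median log2 ratio of 0.05 (37 of 39 above 0) and small subunit genes one of 0.05 (29 of 30). The highest in level was Rps26, at 2333 FPKM in control and 2450 FPKM in cKO, then Rpl32 at 1783 and 1854 FPKM and Rps2 at 1567 and 1625 FPKM. Rps15a had the highest ratio, with 52.7 FPKM in control and 57.8 FPKM in cKO. The 3 genes below 0 were Rpl35 (581 FPKM in control and 570 FPKM in cKO) and the paralogues Rpl7l1 and Rps4l. The other 10 genes were in 9 loci that join several symbols, of which 8 had the higher FPKM in cKO. Mitochondrial ribosomal protein genes had a median log2 ratio of -0.02, with 23 of 70 above 0.

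Markers of several cell types were lower in cKO ‘SHF’. Cardiomyocyte markers had a median log2 ratio of -1.11 (0 of 10 above 0) and summed to 245 FPKM in control and 123 FPKM in cKO. Erythroid markers had one of -0.26 (1 of 8 above 0) and summed to 4202 and 3189 FPKM. Neuron markers had one of -0.22 (0 of 6 above 0), pharyngeal epithelium markers -0.18 (1 of 9), endothelial and endocardial markers -0.14 (3 of 10) and neural crest markers -0.10 (1 of 7). The part of these cells in the shift of ribosomal protein genes was not tested.

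With 1 value per genotype and no spread between embryos, no test could be made, and a small shift shared by many genes and a shift in 1 embryo, in the mix of cells or in the scaling of the genotypes cannot be told apart. The embryo of ‘HEART’ cKO 4 is also ‘SHF’ cKO 4, and that of ‘HEART’ cKO 3 is ‘SHF’ cKO 1. In ‘HEART’ the medians of the same set were below 0, and the difference between dissections was not tested.

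**Figure D5:**
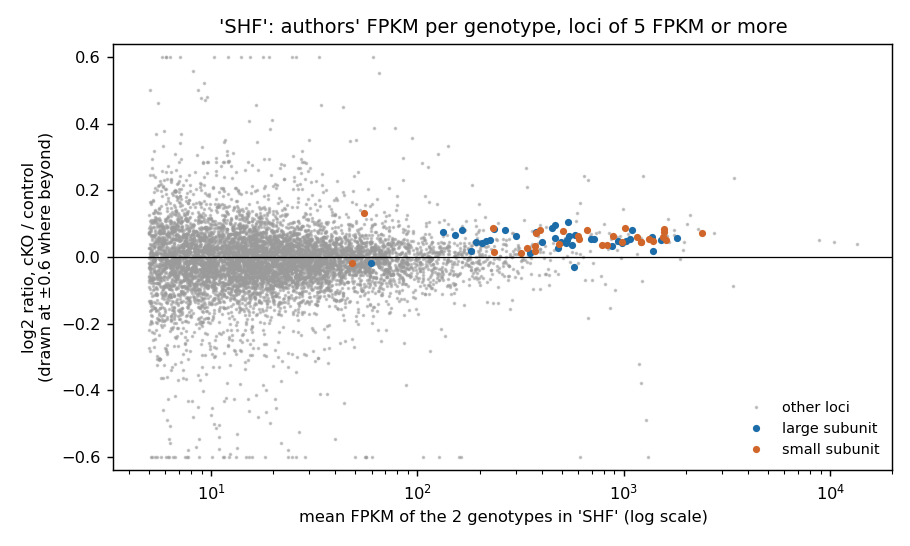
Log2 ratio of cKO over control ‘SHF’ (y axis) against the mean FPKM of both genotypes (x axis, log scale) for loci with 1 symbol and at least 5 FPKM. Ribosomal protein genes (blue, large subunit; orange, small subunit) lie between -0.03 and 0.13 with a median of 0.05, and grey points are other loci.

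The rule of symbols does not reach every ribosomal protein gene. Rps3a1, Rpl36al and Fau, which encodes a ubiquitin-like fusion, had ‘HEART’ log2 fold changes of 0.01 ± 0.08, -0.05 ± 0.09 and -0.03 ± 0.11 (SE), and none passed the test.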

How the data were processed

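The ‘HEART’ file deposited by the authors gave unnormalized counts of reads for each gene in 8 samples. Trimming with fastp 0.20.1, alignment to mm10 with STAR 2.7.2b and counting with featureCounts 1.6.4 are taken from the submitters' processing notes and the paper's methods; the strand setting and the treatment of reads with several matches are not given in the sources used here. Its 8 normalized columns and the authors' fold changes and p-values were not used, and 27 rows carried dates in place of symbols. For ‘SHF’ the authors deposited 1 FPKM value for each genotype (STAR 2.5.0b per the methods) with their own fold changes, p-values and q-values, which were not used. The FPKM unit was read from the table's layout, depth per sample is unknown there, and of loci with the same symbol the one of highest mean was kept. Samples were grouped by title. Where nothing else is said, p-values measure the spread between embryos.

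Counts were fitted in edgeR 4.0.16 (R 4.3.3) with filterByExpr, TMM scaling, glmQLFit and glmQLFTest without covariates, and p-values were adjusted by Benjamini-Hochberg over all genes tested (threshold 0.1, the study's). CPM are scaled by TMM, SE is the log2 fold change divided by the root of F, and 95% intervals use the t distribution with 12.7 residual degrees of freedom, the median over members. The fit was tested on simulated data. Within a genotype, no pair of libraries held the same counts within sampling noise, and pairs across genotypes were not compared in this way. Alternatives were DESeq2 1.42.0, limma-voom (limma 3.58.1), RLE size factors, library totals, TMM without these genes, other filters, leaving out each sample, blocks by replicate number and by embryo code prefix, erythroid genes removed and log2 Xist as a covariate. The members and lists were chosen with earlier results of these data known. Genes named are those called, the 5 per subunit of smallest p, the 3 per subunit highest per kb, the 3 highest and 3 lowest fold changes, paralogues with their parents, X-linked members, the 3 highest in ‘SHF’ and called members of other lists; exceptions are marked, and some genes that the rule gives are not reported here. Promoter sequences are RefSeq's (GRCm38.p6), positions GENCODE M21.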

Additional observations from a re-analysis of the deposited data

Results flagged for a closer look

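In each genotype of 4 ‘HEART’ samples, the gap between the highest or lowest sample and its neighbour was compared with the whole range, over 72 groups of values, of which chance alone would set apart about 1 in 20. Of these, 7 held a sample that stood apart. Among ribosomal protein genes these were Rps26 and Rps28 in control 2 (537.5 and 26.7 CPM, each the highest control) and Rpl7 in cKO 4 (960.5 CPM, the highest cKO sample). Summed over lists, translation factors were highest in cKO 4 (33564.5 CPM) and the mTORC1 and MYC regulators were lowest there (1654.7 CPM). Control 4 was the highest control for erythroid markers (12637.6 CPM) and for pharyngeal epithelium markers (507.7 CPM), of which 1 of 6 measured, Krt19, rose in cKO. The causes were not tested.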

How the results depend on the processing

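In every alternative that was run, 0 of 79 ribosomal protein genes were called in ‘HEART’, and the lowest adjusted p of the 23 named members over 482 values was 0.12. The median log2 fold change of the set moved by less than 0.139, the pooled SD of the library medians, in every alternative: it ran from -0.118 to 0.0164 when single samples were left out (large subunit -0.115 to 0.0164, small subunit -0.119 to 0.0207), so that its sign turned without cKO 3 and, for small subunit genes, without cKO 2, and was -0.0743 with library totals alone (all genes -0.0438) and 0.0065 over the 4 members with 75% or more of their windows in no other gene, a setting chosen after seeing the data. The number of all genes called ranged from 500 to 1421 when single samples were left out (control 1 left out, 509; cKO 1, 510; cKO 2, 500; cKO 4, 1421) and was 235 with log2 Xist as a covariate. The number of members whose genotypes did not overlap ranged from 0 to 17 when single samples were left out. With the replicate number as a block the median was -0.0457, with 0 members and 917 genes called; deviations of same-numbered samples correlated at 0.0928, 0.06, 0.22 and -0.0386, so the numbers were not taken to pair the samples. In ‘SHF’ the median was 0.0532 to 0.0534 in all settings. The p-values for differences of 1.2-fold or less are limited by 4 embryos per genotype.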
